A study of Homo sapiens with 18 samples.

Results

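The replication-dependent histone genes encode the core histones H2A, H2B, H3 and H4 and the linker histone H1 that package newly made DNA. They were taken as all rows whose symbol starts with HIST1H, HIST2H, HIST3H or HIST4H, which gave 73 of the 25369 genes listed. At least 1 read was assigned to 59 of them in each of 2 tables, 1 per cell line. HIST3H2A had reads in MAVER only, and 13 had no read in either table. The levels came from RNA sequencing of JEKO1 and MAVER, established human lines of mantle cell lymphoma, a B cell cancer. After 6 h, JEKO1 was sampled in the groups IB and DMSO, and MAVER in the groups PU, KPT, IB and DMSO, with n = 3 libraries lettered A, B and C in each of the 6 groups. The label KPT was taken to mean selinexor (1.5 µM), which blocks the nuclear exporter XPO1, and IB to mean ibrutinib (0.4 µM), which blocks the kinase BTK. DMSO is the solvent. What PU stands for is not given, and it is printed as the labels have it. The series concerns XPO1 inhibition in ibrutinib-sensitive and ibrutinib-resistant cells, and the libraries are described here for their histone transcripts.

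Replication-dependent histone genes are transcribed mainly in S phase, when the cyclin E and CDK2 kinase activates the coactivator NPAT. Their mRNAs are unusual in that they normally end in a stem-loop and not in a poly(A) tail. The stem-loop binding protein SLBP holds this end through processing, export, translation and decay. A library made from polyadenylated RNA therefore captures them poorly. The labels do not say whether these libraries were made by poly(A) selection. Some members, among them HIST1H1C, HIST1H2AC, HIST1H2BD, HIST1H2BK and HIST2H2BE, are known to give polyadenylated mRNA as well. The RNAs used beside them have no poly(A) tail either: RNA45S5 is the ribosomal RNA precursor, RPPH1 the RNA of ribonuclease P and RMRP the RNA of ribonuclease MRP.

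The stem-loop was looked for in the GENCODE v29 transcripts of the members, as 16 letters made of 2 arms of 6 around a loop of 4. It was found in 33 of the 73 genes, in 6 forms. No match in the other genes says only that no annotated transcript held these letters. A transcript may be annotated without its end. The form that HIST1H2BG, an H2B gene, carries stood in 17 genes. Those of HIST1H4H and HIST1H4I stood in 5 and 3 genes, all of class H4. These genes are shown because they recur in the results, with the 16 letters in capitals and 5 bases on either side in lower case.
HIST1H2BG (chromosome 6): tcaaaGGCTCTTTTCAGAGCCactca
HIST2H2BE (chromosome 1): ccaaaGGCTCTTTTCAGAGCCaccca
HIST1H2BC (chromosome 6): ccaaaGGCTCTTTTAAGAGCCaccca
HIST1H2AG (chromosome 6): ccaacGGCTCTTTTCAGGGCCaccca
HIST1H4H (chromosome 6): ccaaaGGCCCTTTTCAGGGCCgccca
HIST1H4I (chromosome 6): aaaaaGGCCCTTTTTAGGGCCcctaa
In 24 of the 33 genes an annotated transcript ran at least 100 bases past the stem-loop, by 1059 bases in HIST1H2BG, 1729 in HIST2H2BE and 1655 in HIST1H4H. In the other 9 it ended closer to the loop, as in HIST1H2BD, with 39 bases. Of genes with fewer than 50% of their 50-base stretches shared with another gene, the 20 with a longer transcript had a median level of 30.9 normalized counts in JEKO1, and the 5 others one of 8.42. In MAVER these medians were 8.09 and 5.05. In JEKO1 the 5 others ran from 0 (HIST3H3) to 551 (HIST1H2BD), and the 20 from 0 (HIST3H2A) to 681 (HIST1H2AC). These counts were not scaled for transcript length, and a longer transcript can collect more reads. They are descriptions of the annotation beside the levels and were not tested.

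Promoters were read from RefSeq (GRCh38.p14), which held an entry for 65 of the 73 genes, in 69 windows. The octamer ATTTGCAT, the CCAAT box and the TATA box TATAAA were searched on both strands (as ATGCAAAT, ATTGG and TTTATA on the other) in the 250 bases before the start. The octamer stood in 75% of the H2B windows, in 68.75% of the H2A windows and in 1.632% of all 35116 promoters in the table. It was in 7.143% of the H3 windows and in 0 of the 6 H1 and 13 H4 windows, where no match says only that these letters are not in the window. The CCAAT box was in every H1, H2A, H2B and H3 window and in 23.08% of the H4 windows, against 32.01% of all promoters. TATAAA was in 66.67% of the histone windows, against 10.72% of all promoters. The last 120 bases before the start are shown on the strand of each gene, with motif matches in capitals, for genes that recur in the results. In HIST1H2AG the capitals TTTATAAA join overlapping matches of the TATA box on both strands. HIST1H2BG and HIST1H2AE lie head to head, and so do HIST1H2BJ and HIST1H2AG. Over the 250 bases searched, the windows of these pairs overlap, so 1 octamer can count for both genes. The H2A and H2B shares are therefore not independent. In the 120 bases shown, HIST1H2BG and HIST1H2BJ hold 1 octamer each, and HIST1H2AE and HIST1H2AG hold 0.
HIST1H2BG (chr6:26216689-26216808, minus strand): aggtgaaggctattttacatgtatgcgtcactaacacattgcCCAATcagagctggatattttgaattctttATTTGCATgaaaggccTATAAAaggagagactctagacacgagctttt
HIST1H2AE (chr6:26216801-26216920, plus strand): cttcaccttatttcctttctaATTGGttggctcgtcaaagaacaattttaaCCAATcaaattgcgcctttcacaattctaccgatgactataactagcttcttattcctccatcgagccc
HIST1H2BJ (chr6:27132796-27132915, minus strand): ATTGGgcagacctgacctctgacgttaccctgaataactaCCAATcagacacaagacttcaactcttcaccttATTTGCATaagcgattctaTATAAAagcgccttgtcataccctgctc
HIST1H2AG (chr6:27132923-27133042, plus strand): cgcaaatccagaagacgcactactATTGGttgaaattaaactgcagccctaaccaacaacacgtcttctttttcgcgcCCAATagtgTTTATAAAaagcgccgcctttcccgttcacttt
HIST1H1C (chr6:26056471-26056590, minus strand): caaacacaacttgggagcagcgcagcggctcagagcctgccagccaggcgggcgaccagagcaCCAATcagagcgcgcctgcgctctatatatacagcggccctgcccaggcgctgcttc
HIST1H4H (chr6:26285535-26285654, minus strand): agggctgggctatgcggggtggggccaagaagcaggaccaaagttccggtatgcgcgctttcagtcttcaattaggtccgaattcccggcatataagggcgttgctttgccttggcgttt
The 120 bases shown for HIST1H2BG and for HIST1H2AE share 8 bases at their far ends. A match is a description and not a shown binding site.

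Depth was 8764566 to 12627963 reads per library in JEKO1 and 5374226 to 17040599 in MAVER, with the lowest value in KPT replicate A. Each line was scaled on its own, and no level of 1 line is set against the other. RNA45S5 stood at 17262, 24758 and 16416 normalized counts in JEKO1 libraries labelled IB and at 25147, 24253 and 65331 in those labelled DMSO. In MAVER it was 32274, 15503 and 15476 with PU, 53819, 9092 and 66933 with KPT, 20743, 19941 and 7919 with IB, and 16069, 19295 and 13835 with DMSO. JEKO1 DMSO replicate C, MAVER KPT replicates A and C and MAVER PU replicate A were over 30000 and are called the RNA45S5-rich libraries here. They also held the most RPPH1 and RMRP of their group, for example 124 and 93.3 normalized counts in KPT replicate A against 7.13 and 3.56 in KPT replicate B. All 7 B cell markers averaged at least 10 normalized counts in both lines, and none of the 4 T cell, 4 myeloid and 4 erythroid markers did. Both plasma cell markers did in MAVER (SDC1 106, PRDM1 193). In JEKO1 PRDM1 (37.2) did and SDC1 (6.96) did not. Of 1415 genes called with IB in both lines, 1260 moved opposite ways (89% of them, of 10632 tested in both), and an exchange of the JEKO1 labels cannot be told apart from an opposite response. In bulk RNA, fewer cells in S phase and less histone RNA per cell cannot be told apart either.

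**Figure D1:**
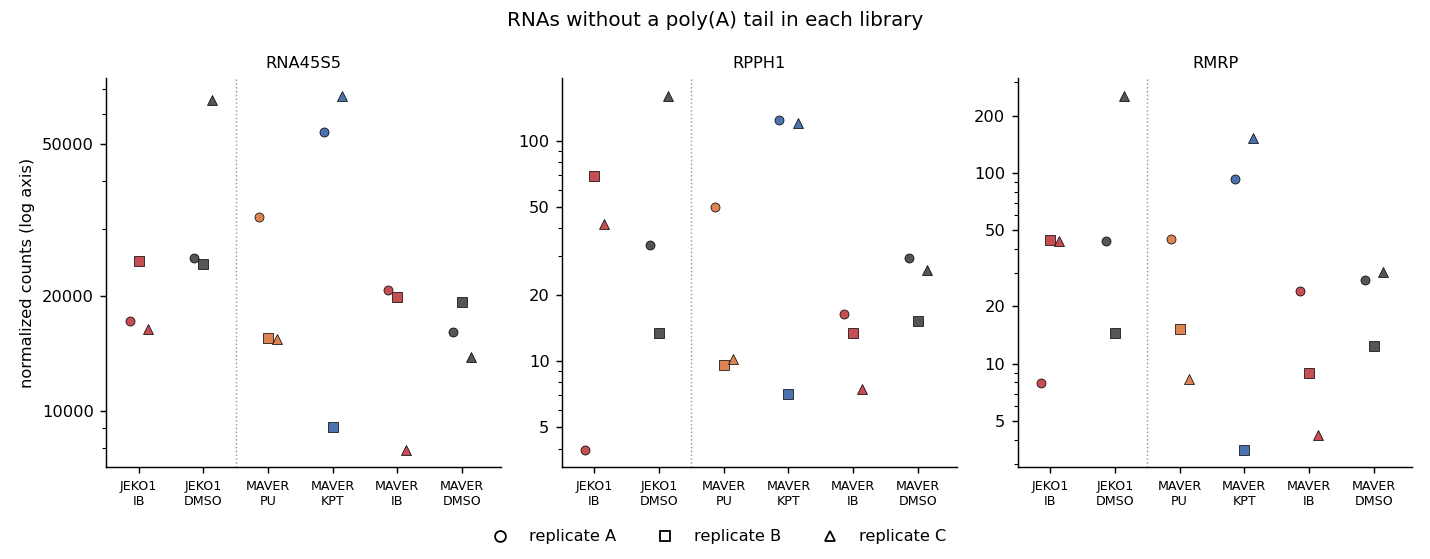
RNA45S5, RPPH1 and RMRP in each of the 18 libraries, in normalized counts on log axes; each point is 1 library, its shape gives the replicate and its colour the treatment, and the dotted line divides the separately normalized lines. JEKO1 DMSO replicate C, at 65331 normalized counts of RNA45S5, MAVER KPT replicates A and C, at 53819 and 66933, and PU replicate A, at 32274, stand above the rest of their groups in all 3 RNAs.

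Within these groups the RNA45S5-rich libraries also held more histone transcripts, and mainly those of genes outside the 5 known for polyadenylated mRNA. In KPT, 16 of the 22 histone genes tested were higher in replicates A and C than in replicate B (72.7%, against 37.6% of the 11099 genes tested). Of the 17 outside the poly(A) list, 14 were (median log2 difference 0.94), against 2 of the 5 on it (median -0.01). HIST1H1B, the linker histone H1.5, stood at 35.9, 5.94 and 43.6 normalized counts in KPT replicates A, B and C. In JEKO1, 19 of 32 histone genes were highest among DMSO libraries in replicate C (59.4%, against 35.9% of 11609 genes), by a median of 0.37 in the 27 outside the poly(A) list and 0.08 in the 5 on it. HIST1H1B stood there at 14.7, 11.2 and 65.8. In PU, 12 of 22 were highest in replicate A (54.5%, against 34.3%). Genes were tested from a mean of 10 normalized counts over all libraries of a line, the rich ones included. These shares and medians are thus partly set by that filter, and 8 of the 22 MAVER genes passed it only through KPT. The poly(A) list was chosen with earlier results of these data known, so the split by it is a description. Other RNAs without a poly(A) tail, such as small nucleolar and Cajal body RNAs, were nearer to all genes or below them. Of those tested, 8 of 17 were higher in KPT replicates A and C (47.1%, median log2 difference 0.09), 9 of 34 were highest in JEKO1 DMSO replicate C (26.5%, median 0.03) and 3 of 17 in PU replicate A (17.6%, median -0.46). RNA45S5, RPPH1 and RMRP are therefore given as these 3 RNAs and not as a measure of all RNA without a tail. Histone results from KPT and from JEKO1 DMSO are therefore given with and without these libraries. The part of RNA without a tail in each result was not tested beyond those fits and fits with RNA45S5, or RPPH1 and RMRP, as a covariate.

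A few genes carried most histone reads. Histone genes took 0.108% to 0.132% of the reads in JEKO1 libraries and 0.00889% to 0.0196% in MAVER libraries. In JEKO1, HIST1H2BK, an H2B gene, had 11741 normalized counts per kb of coding sequence and HIST1H1C, the linker histone H1.2, had 6324. These 2 genes held 67.9% to 73% of the histone counts in JEKO1 libraries and 35.4% to 52.5% in MAVER libraries. Next in JEKO1 came HIST1H2AC (1747 per kb), HIST2H2BE (1671) and HIST1H2BD (1457). The 5 highest are the 5 on the poly(A) list, which was chosen with earlier results of these data known. Their match is therefore not a result. HIST1H2BJ (831), HIST1H4H (458), HIST1H2BG (396), HIST1H3H (314) and HIST1H2BC (230 to the nearest whole count) followed. HIST1H2BK shares 74.1% of its 50-base stretches with other genes in GENCODE v29, so its level is uncertain. Counts of a whole gene were divided by its coding length alone. Transcripts that run past the stem-loop, by 1729 bases in HIST2H2BE, can add reads without adding to this length. How far the order and the class medians follow transcript length was not tested.

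In MAVER the order was similar at the top. HIST1H2BK had 568 normalized counts per coding kb and HIST1H1C had 454. HIST1H2BH, an H2B gene outside the poly(A) list, came next at 278, ahead of HIST1H2BD at 173 and HIST1H2AC at 76.1. HIST1H2AE (71.9), HIST2H2BE (69.7), HIST1H2BG (56.5), HIST2H2AC (54.6) and HIST3H2A (51.8) closed the 10 highest. The H4 genes reached 42.1 per kb at most (HIST1H4H), with a median of 13.3 over the 12 with a read. The median of the H3 genes was 19.6 per kb over 11 genes, and that of the H2A genes 24.8 over 14.

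**Figure D2:**
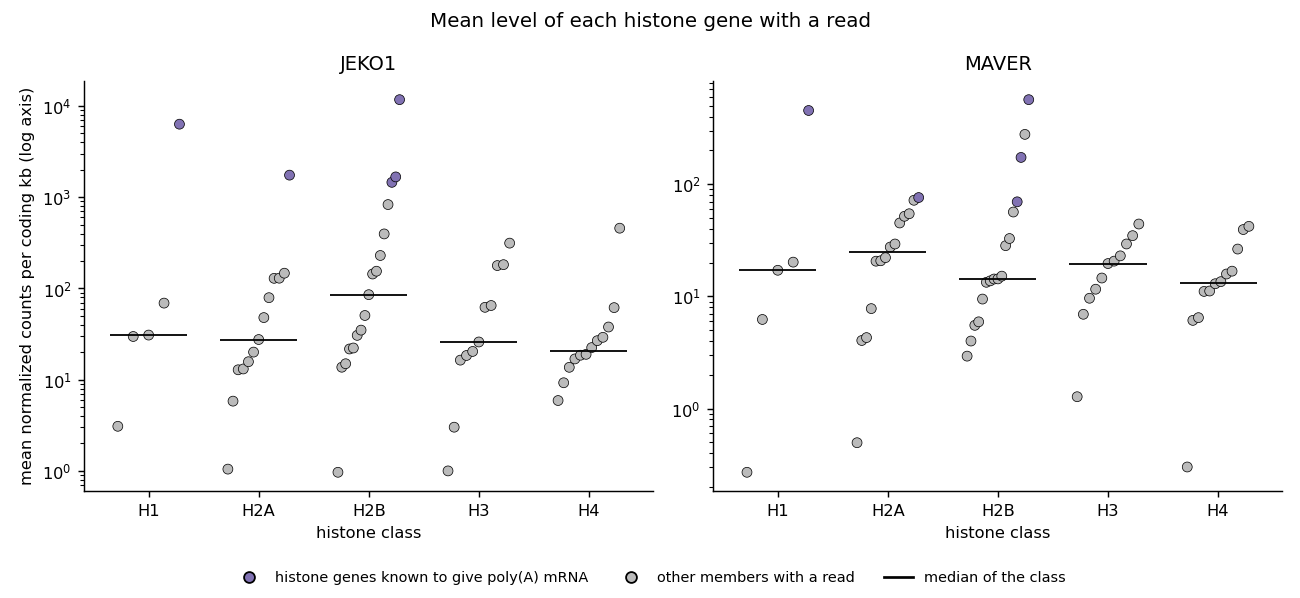
Mean level over all libraries of a line for each protein-coding histone gene with a read, in normalized counts per kb of coding sequence on log axes, by histone class; points are genes, purple marks the 5 known for polyadenylated mRNA and lines are class medians. HIST1H2BK and HIST1H1C stand highest in both panels, at 11741 and 6324 in JEKO1 and 568 and 454 in MAVER.

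Most members had few reads. A mean of at least 10 normalized counts over the libraries of a table, the level needed for testing, was reached by 32 genes in JEKO1 and 22 in MAVER, 19 of them in both. HIST1H3J (10.6), HIST1H2AK (10.8) and HIST1H4C (11.7) were just above it in JEKO1, and HIST1H4D (9.01), HIST2H2BC (8.65) and HIST1H2BL (8.42) just below. In MAVER HIST1H2AH (10.6), HIST1H2BJ (10.7) and HIST1H1E (11.2) were just above, and HIST1H3D (9.38), HIST1H2AB (8.64) and HIST1H3F (8.42) just below. Genes that reached it through 1 high group had to differ, so counts over the tested genes are not counts over all members. The 13 without a read were HIST1H1A, HIST1H2AA, HIST1H2APS1, HIST1H2BA, HIST1H4G, HIST2H2AA3, HIST2H2AA4, HIST2H2BA, HIST2H3A, HIST2H3C, HIST2H4A, HIST2H4B and HIST3H3. HIST2H2AA3 with HIST2H2AA4, HIST2H3A with HIST2H3C, and HIST2H4A with HIST2H4B are near-identical copies. These 6 shared 97.1% to 100% of their 50-base stretches with other genes. In all, 7 of the 13 without a read shared over 50%, and 10 of the 60 genes with reads did. The median share was 73.6% in the 13 without a read and 1.15% in the 60 with reads. HIST1H3D, HIST1H4K and HIST1H2AK shared 100% and still had reads. Whether sharing led to a lack of reads was not tested. The 10 with reads that shared over 50% are HIST1H2AD, HIST1H2AI, HIST1H2AJ, HIST1H2AK, HIST1H2AM, HIST1H2BK, HIST1H3D, HIST1H4J, HIST1H4K and HIST2H3D, whose levels are uncertain.

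In JEKO1, 6 of the 32 histone genes tested were lower in the libraries labelled IB than in those labelled DMSO, and 0 were higher (limma, adjusted p under 0.05). Over all 11609 genes tested, 20.2% were lower and 21.9% were higher, so 6 of 32 is near the background. The median log2 fold change was -0.27 over the 32 and -0.01 over all genes. Fold changes are on the log2(normalized count + 1) scale, which understates the change of low genes, and are followed by ± their SE. Without DMSO replicate C the count was 3 of 32, beside 4587 called of all 11609 genes, with a median of -0.13. With RNA45S5 as a covariate the median was 0.05. The genes that fell were 3 of the 5 on the poly(A) list and 3 others.

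HIST1H1C had 3644, 3694 and 3471 normalized counts in the libraries labelled IB, against 4467, 4729 and 4241 in those labelled DMSO. Every IB library was below every DMSO library, and the log2 fold change was -0.31 ± 0.04 (SE; limma adjusted p = 1.1e-05). HIST1H2BK had 3806, 3979 and 4252 in IB libraries, against 4848, 4665 and 5077 with DMSO. The groups did not overlap (log2 fold change -0.28 ± 0.05, limma adjusted p = 5.65e-05). HIST1H2AE, an H2A gene, had 43.7, 48.2 and 42.9 in IB libraries, against 69, 79.4 and 61.1 with DMSO. It fell by 0.62 on the log2 scale (SE 0.17; limma adjusted p = 0.00585), again without overlap. HIST1H1C, HIST1H2BK and HIST1H2AE remained the 3 genes called when DMSO replicate C was left out, with log2 fold changes of -0.35, -0.25 and -0.71. They were also 3 of the 4 called with RNA45S5 as a covariate, where the other gene was higher in IB libraries. Likewise 1 gene was called higher with edgeR, with the letters as a block, with RPPH1 and RMRP as a covariate and without IB replicate C.

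The other 3 calls were less stable. HIST1H2BM, an H2B gene, had 6.35, 12.6 and 2.09 normalized counts in IB libraries, against 12.1, 8.94 and 37.2 with DMSO (a log2 change of -1.33 ± 0.52, limma adjusted p = 0.0463), where replicate C stood far above the rest. HIST1H2AG had 51.6, 29.8 and 43.9 in IB libraries, against 59.5, 53.6 and 64.9 with DMSO (-0.53 ± 0.20, limma adjusted p = 0.0422). HIST2H2BE had 627, 557 and 596 in IB libraries, against 644, 664 and 701 with DMSO, a small difference without overlap (-0.17 ± 0.06, limma adjusted p = 0.0342). Without DMSO replicate C none of the 3 was called. HIST1H2BM was then at -0.75, while HIST1H2AG (-0.46) and HIST2H2BE (-0.14) stayed near their values with all libraries. Both also lost their call without IB replicate B, at -0.31 and -0.13, and HIST1H2BM lost its call without DMSO replicate A, IB replicate A or IB replicate C.

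The same library stood apart in several genes that were not called. HIST1H3B, an H3.1 gene, had 18.3, 17.2 and 13.6 normalized counts in IB libraries, against 19.8, 17.9 and 72.5 with DMSO (a log2 change of -0.83 ± 0.38, limma adjusted p = 0.0859). HIST1H1B had 7.94, 9.17 and 16.7 in IB libraries, against 14.7, 11.2 and 65.8 with DMSO (-0.99 ± 0.47, limma adjusted p = 0.0972). In both, DMSO replicates A and B stood beside the IB libraries and replicate C far above. RNA45S5 itself was called lower in the IB libraries (-0.84 ± 0.23, limma adjusted p = 0.00602). The groups of the other abundant genes overlapped. HIST1H4H, an H4 gene, had 144, 146 and 142 in IB libraries, against 138, 143 and 136 with DMSO (0.05 ± 0.11). HIST1H2AC had 665, 633 and 753 in IB libraries, against 655, 737 and 647 with DMSO (0.01 ± 0.07). HIST1H2BD had 535, 558 and 632 in IB libraries, against 486, 547 and 546 with DMSO (0.13 ± 0.07, limma adjusted p = 0.177).

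**Figure D3:**
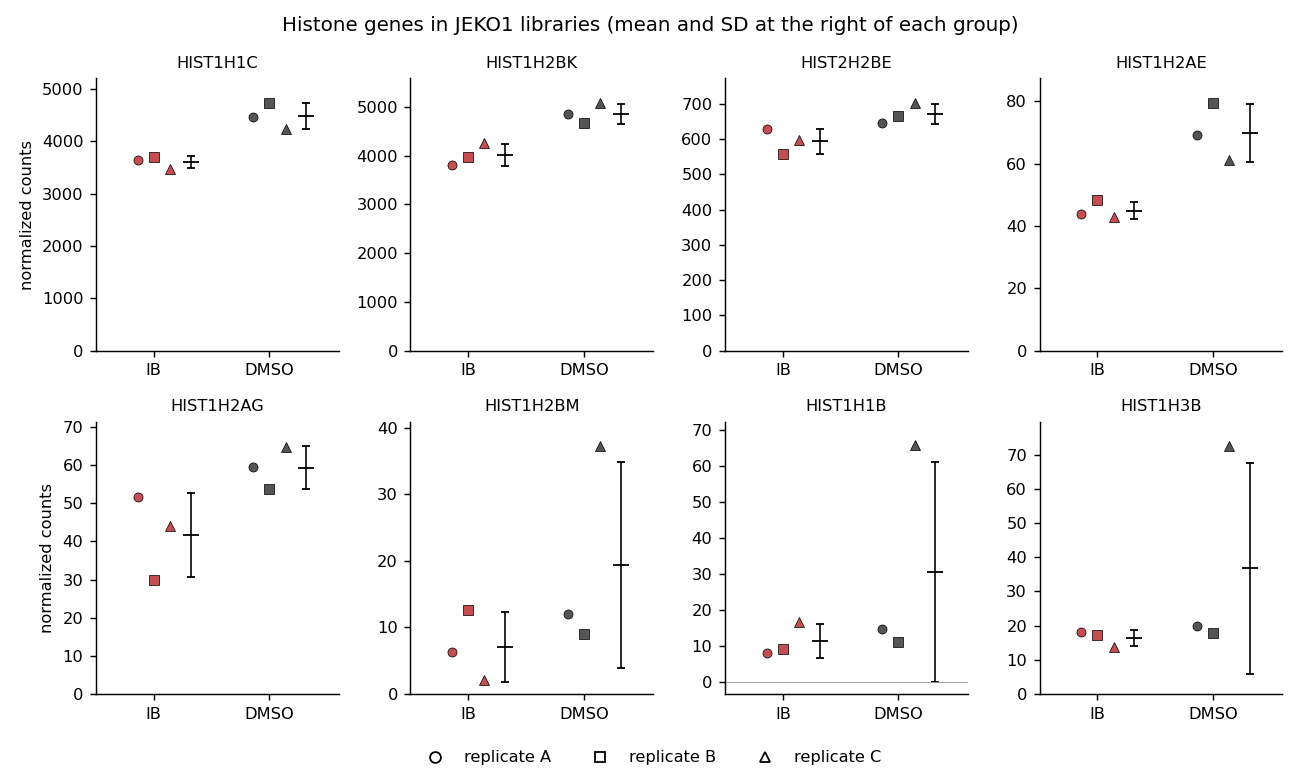
Normalized counts of 8 histone genes in JEKO1 libraries labelled IB and DMSO; points are libraries with shape by replicate, and the bar at the right of each group is the mean with its SD (n = 3). HIST1H1C, HIST1H2BK and HIST1H2AE are lower in all 3 IB libraries than in any DMSO library, while HIST1H2BM, HIST1H1B and HIST1H3B are set apart by DMSO replicate C, at 37.2, 65.8 and 72.5.

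In MAVER no histone gene passed the test with IB. None of the 22 genes tested was called with IB against DMSO (0 higher and 0 lower by limma, against a background of 10.1% higher and 9.65% lower of 11099 genes). At an unadjusted p under 0.05 there was 1, and edgeR and DESeq2 on recovered reads also called 0. HIST1H1C had 261, 236 and 237 normalized counts with IB, against 202, 241 and 229 with DMSO (a log2 change of 0.13 ± 0.09, 95% interval -0.05 to 0.31). HIST1H2BK had 191, 211 and 154 with IB, against 174, 215 and 212 with DMSO, with overlapping groups (-0.12 ± 0.11, interval -0.33 to 0.10). The gene with an unadjusted p under 0.05 was HIST1H2AE, at 20.2, 15.6 and 13.8 with IB, against 22.1, 26.7 and 32.8 with DMSO (-0.68 ± 0.27, limma adjusted p = 0.0652). It was the 1 gene called when IB replicate A was left out (limma adjusted p = 0.0457). HIST1H4C, which encodes histone H4, had 8.67, 3.35 and 3.19 with IB, against 3.68, 7.62 and 4.69 with DMSO, and at so few reads its 95% interval was wide (-1.03 to 0.77 on the log2 scale).

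With KPT, histone transcripts were higher in MAVER. Of the 22 genes tested, 15 were higher than with DMSO and 0 were lower, against a background of 27.3% higher and 28.5% lower of 11099 genes. All 22 fold changes were positive, beside 5532 of all 11099. Their median was 0.82 on the log2 scale, against 0.00 over all genes. Of the 22, 8 reached the mean of 10 only through KPT, among them the called genes HIST1H4C, HIST1H3B, HIST1H2BC and HIST1H1B, so these counts and the median are partly set by the filter. The other 14 averaged at least 10 over the PU, IB and DMSO groups as well, and 11 of them were called higher. Without KPT replicates A and C and PU replicate A, the RNA45S5-rich libraries, KPT is replicate B alone. The fit assumes this library to vary like the other groups. Of the 22 fold changes 18 were then positive, with a median of 0.26. The positive share over all genes was not counted there.

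HIST1H4C, 1 of the genes that passed the filter only through KPT, had 34.1, 24.9 and 46.1 normalized counts with KPT, against 3.68, 7.62 and 4.69 with DMSO. The lowest KPT library was above the highest DMSO library, and the log2 fold change was 2.51 ± 0.45 (SE; limma adjusted p = 7.62e-06). It was 2.08 without the RNA45S5-rich libraries (limma adjusted p = 0.0113) and 2.28 with RNA45S5 as a covariate. Its call held with no filter but 1 read. HIST1H2BG, whose stem-loop and promoter are given above, had 37.7, 40.4 and 58.6 with KPT, against 13.8, 14.3 and 14.1 with DMSO. It was high in all 3 KPT libraries, replicate B included, with a log2 fold change of 1.60 ± 0.29 (limma adjusted p = 9.18e-06) and of 1.46 without the rich libraries (limma adjusted p = 0.00469).

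HIST1H1C and HIST1H2BK also rose, by less. HIST1H1C had 334, 321 and 397 normalized counts with KPT, against 202, 241 and 229 with DMSO. The groups did not overlap (log2 fold change 0.64 ± 0.09, limma adjusted p = 8.28e-08), and the value was 0.52 without the rich libraries. HIST1H2BK had 296, 287 and 270 with KPT, against 174, 215 and 212 with DMSO. It rose by 0.51 ± 0.11 (limma adjusted p = 8.52e-05) and by 0.52 without the rich libraries, where KPT replicate B lay between the others. HIST1H4C, HIST1H2BG, HIST1H1C and HIST1H2BK were called under every alternative that tested them, 20 for HIST1H4C and HIST1H2BG and 21 for HIST1H1C and HIST1H2BK. These include the fit on KPT replicate B alone, a library at 9092 normalized counts of RNA45S5, below the 3 DMSO libraries.

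HIST1H4H, HIST1H2BD and HIST1H2AC lay between these and the rest. HIST1H4H had 23.3, 17.8 and 24.9 normalized counts with KPT, against 9.21, 7.62 and 7.04 with DMSO (a log2 change of 1.36 ± 0.38, limma adjusted p = 0.00224). HIST1H2BD had 111, 76 and 123 with KPT, against 71.8, 51.4 and 38.3 with DMSO (0.95 ± 0.20, limma adjusted p = 9.47e-05). HIST1H2AC had 39.5, 39.2 and 38.6 with KPT, against 29.5, 13.3 and 25.8 with DMSO (0.82 ± 0.26, limma adjusted p = 0.00631). In each of these, all KPT libraries were above all DMSO libraries. Without the rich libraries their fold changes were 1.08, 0.54 and 0.82, none of them called (limma adjusted p = 0.109, 0.110 and 0.067), with 1 KPT library left. HIST1H2AC also lost its call without DMSO replicate B.

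The other calls rested more on KPT replicates A and C. HIST1H3B had 25.1, 7.13 and 42.4 normalized counts with KPT, against 3.68, 15.2 and 7.82 with DMSO. Replicate B was among the DMSO libraries, and the log2 fold change of 1.26 ± 0.54 (limma adjusted p = 0.0438) became -0.11 without the rich libraries. HIST1H1B had 35.9, 5.94 and 43.6 with KPT, against 4.61, 11.4 and 10.2 with DMSO, and 1.29 ± 0.48 (limma adjusted p = 0.0212) became -0.41. Both lost their call with either covariate. HIST1H2BC, HIST1H3G and HIST1H2AE, with log2 fold changes of 0.98 ± 0.40, 0.97 ± 0.37 and 0.64 ± 0.27, stood at 0.06, 0.04 and 0.02 without the rich libraries. HIST1H2AG (0.79 ± 0.32) and HIST1H2BH (0.39 ± 0.13) kept positive values of 0.35 and 0.23 there but were not called. HIST2H2AC (0.66 ± 0.29, limma adjusted p = 0.0499) lost its call without any 1 of the KPT or DMSO libraries. With KPT replicate A, KPT replicate C or DMSO replicate A left out, 8 of the 22 were called in each case. All genes called there were 5811, 5732 and 5682 of 11099.

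The 7 genes not called with all libraries were HIST1H2AH (0.85 ± 0.41), HIST1H2AL, HIST1H1E, HIST1H3C, HIST1H2BJ, HIST3H2A and HIST2H2BE. HIST1H2BJ had 7.17, 1.19 and 39.9 normalized counts with KPT, against 3.68, 4.76 and 12.5 with DMSO, a spread of KPT libraries wider than any difference between groups (log2 fold change 0.33 ± 0.58). Without the rich libraries its value was -1.71, on the 1 KPT library that was left. HIST1H2AG, head to head with it, had 25.1, 17.8 and 32.4 with KPT, against 9.21, 16.2 and 17.2 with DMSO.

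**Figure D4:**
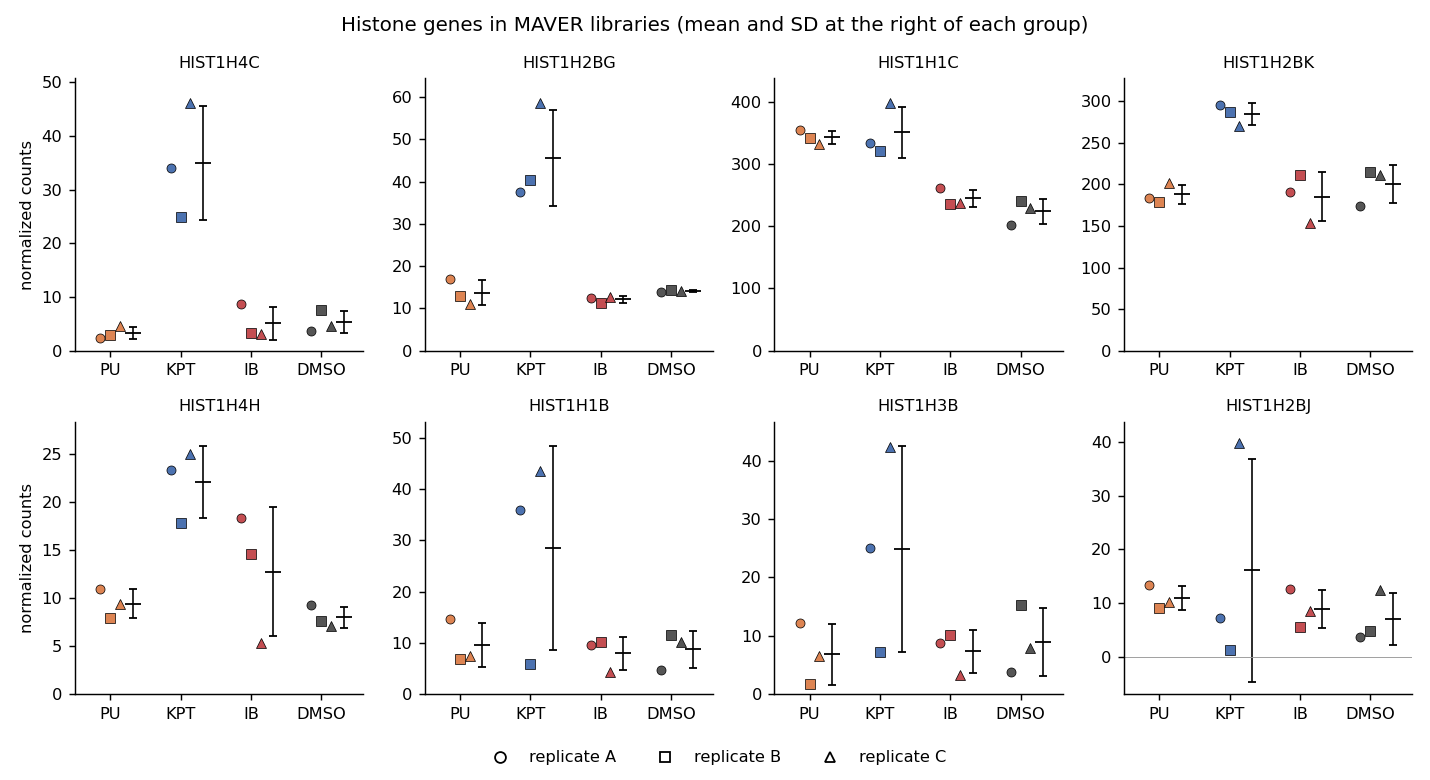
Normalized counts of 8 histone genes in MAVER libraries with PU, KPT, IB and DMSO; points are libraries with shape by replicate, and the bar at the right of each group is the mean with its SD (n = 3). HIST1H4C and HIST1H2BG are high in all 3 KPT libraries, from 24.9 and 37.7 upward, while HIST1H1B and HIST1H3B are high in KPT replicates A and C and at 5.94 and 7.13 in replicate B.

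**Figure D5:**
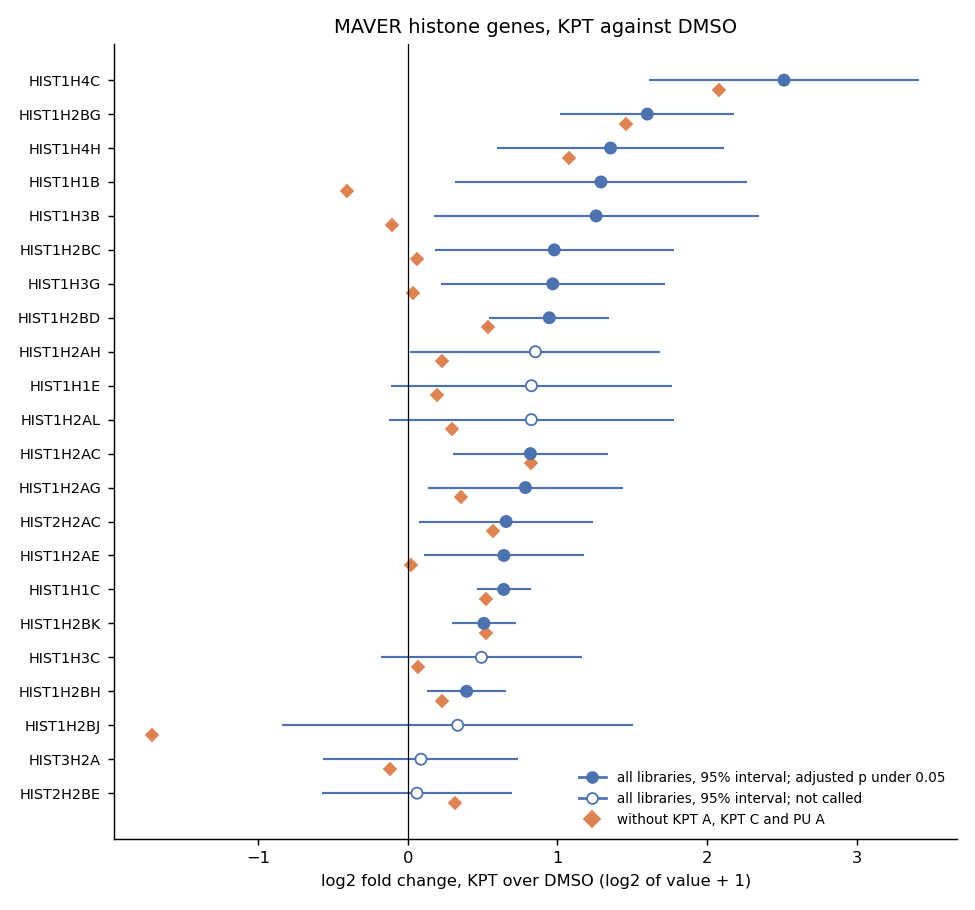
Log2 fold change of KPT over DMSO for the 22 histone genes tested in MAVER, with 95% intervals (circles, filled where limma's adjusted p was under 0.05), and the value without KPT replicates A and C and PU replicate A (diamonds). The circles all lie above 0, and the diamonds of HIST1H4C (2.08), HIST1H2BG (1.46), HIST1H1C (0.52) and HIST1H2BK (0.52) stay clear of it, while 4 of the 22 diamonds lie below 0.

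The 38 members with reads in MAVER but a mean under 10 were not tested. Their summed level was 283, 223 and 323 normalized counts in KPT replicates A, B and C, against 120, 108 and 116 with DMSO. Replicate B was below the other KPT libraries and above every DMSO library. The mean of 33 of the 38 was higher with KPT than with DMSO. These means include the rich KPT replicates A and C, and the share over all genes under the filter was not counted. Over all members outside the poly(A) list, the sum was 834, 586 and 1015 with KPT, against 388, 396 and 416 with DMSO, and the H4 genes summed to 134, 82 and 162 with KPT, against 43.3, 47.6 and 40.6 with DMSO. These sums describe levels and carry no test.

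With PU, 1 of the 22 genes was higher than with DMSO and 0 were lower, against a background of 27.6% higher and 27.5% lower of 11099 genes. The gene was HIST1H1C, at 354, 342 and 332 normalized counts with PU, against 202, 241 and 229 with DMSO. The groups did not overlap (log2 fold change 0.61 ± 0.09, limma adjusted p = 1.88e-07), and it was called under every alternative run. Its PU and KPT levels overlapped (PU over KPT -0.03 ± 0.09, interval -0.21 to 0.15). HIST1H2BK had 184, 179 and 201 with PU, all inside the DMSO range of 174 to 215 (-0.09 ± 0.11). HIST1H4C had 2.43, 2.83 and 4.65 with PU (-0.54 ± 0.45), and HIST1H2BG had 17, 13 and 11.2 (-0.05 ± 0.29), both near their DMSO levels. The median log2 fold change of the 22 was 0.05, against 0.01 over all genes.

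KPT was also set against IB and PU against KPT within the same MAVER fit, which shares the KPT libraries between both. The filter partly sets these counts too, since 8 of the 22 genes reached the mean of 10 only through KPT. Among these 8, HIST1H4C, HIST1H3B, HIST1H2BC, HIST1H1E and HIST1H1B were called in both comparisons. With KPT, 13 genes were higher than with IB and 0 were lower (background 27.0% higher and 28.2% lower). HIST1H4C differed by 2.64 ± 0.45 (limma adjusted p = 3.54e-06) and HIST1H2BG by 1.80 ± 0.29 (1.3e-06), and HIST1H2AE, which was lowest with IB, by 1.33 ± 0.27 (5.06e-05). With PU, 12 genes were lower than with KPT and 0 were higher (background 28.6% lower and 28.3% higher). HIST1H4C differed by -3.06 ± 0.45 (limma adjusted p = 2.12e-07), HIST1H2BG by -1.65 ± 0.29 (5.37e-06) and HIST1H2BK by -0.60 ± 0.11 (7.6e-06). Without the rich libraries KPT is replicate B alone. The median log2 fold change of the 22 was then 0.33 for KPT against IB and -0.31 for PU against KPT. With all libraries, RPPH1 (1.96, limma adjusted p = 0.00294), RMRP (1.89, 0.0138) and RNA45S5 (1.11, 0.00673) were also higher with KPT than with IB. In the comparison with IB the count was 8 without IB replicate C, 8 without KPT replicate A and 7 without KPT replicate C. All genes called there were 5817, 5714 and 5676 of 11099.

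The IB effect in JEKO1 minus that in MAVER was tested on 19 histone genes. For 1 it was lower and for 0 higher, against a background of 19.6% lower and 21.7% higher of 10632 genes. HIST1H1C was lower in JEKO1 libraries labelled IB (-0.31 ± 0.04) and not called in MAVER (0.13 ± 0.09), and the difference was -0.44 ± 0.09 (limma adjusted p = 0.000214). HIST1H2BK differed by -0.16 ± 0.12 between the lines (limma adjusted p = 0.305). Without MAVER IB replicate C 4 genes were called, and without JEKO1 IB replicate A, JEKO1 IB replicate B or MAVER DMSO replicate C there were 2 each. If the JEKO1 labels were exchanged, the sign of the JEKO1 effect would turn.

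Genes that make, process or use histone mRNA were looked at beside the members. Of 24 genes of histone mRNA processing and control, 8 rose and 4 fell in JEKO1 libraries labelled IB, beside 21.9% and 20.2% of all genes tested. SLBP had 2176 ± 64.1 normalized counts in IB libraries, against 1630 ± 43.8 with DMSO (SD, n = 3; log2 fold change 0.42 ± 0.05). CCNE2, a cyclin E gene, had 98.6 ± 9.25, against 38.8 ± 6.16 with DMSO (1.33 ± 0.17), and CDK2 rose by 0.53 ± 0.05. NPAT fell to 937 ± 54.3 in IB libraries, against 1036 ± 29.5 with DMSO (-0.15 ± 0.06, limma adjusted p = 0.042). Of 34 S phase genes 21 rose and 3 fell, the risen ones including TYMS (0.41 ± 0.04), the thymidylate synthase, and UHRF1 (0.43 ± 0.05). The median of the 32 histone genes was negative in the main fit (-0.27) while most S phase genes rose. This histone median was -0.13 without DMSO replicate C and 0.05 with RNA45S5 as a covariate.

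With IB in MAVER few of these genes changed. Of the 24 processing genes 1 rose and 2 fell, and of the 34 S phase genes 2 rose and 0 fell, beside 10.1% higher and 9.65% lower of all genes. SLBP had 1472 ± 48.1 normalized counts with IB, against 1553 ± 74.4 with DMSO (a log2 change of -0.08 ± 0.05, limma adjusted p = 0.334). With KPT, 6 of the 24 processing genes rose and 11 fell, and of the S phase genes 7 rose and 10 fell, with a median of -0.03. Over all genes 27.3% were higher and 28.5% lower, so the processing genes that rose and the S phase genes in both directions were near or below the background. SLBP fell to 1341 ± 79 with KPT, against 1553 ± 74.4 with DMSO (-0.21 ± 0.05, limma adjusted p = 0.000494). NCBP1, a subunit of the nuclear cap-binding complex, fell by 0.87 on the log2 scale (SE 0.05), PNPT1, an RNA-degrading exonuclease, by 0.95 (SE 0.06), and CPSF2, a subunit of the complex that cuts histone pre-mRNA, by 0.63 (SE 0.05). NPAT did not pass the test (0.12 ± 0.09, limma adjusted p = 0.229). Of 26 histone chaperones 7 rose and 11 fell, with IPO4, an importer of histones, lower by 0.67 (SE 0.05).

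With PU most S phase genes fell. Of 34 S phase genes 32 were lower and 0 higher than with DMSO, with a median log2 fold change of -0.61, beside 27.5% lower and 27.6% higher of all genes. MCM4, a subunit of the replicative helicase, had 941 ± 32.9 normalized counts with PU, against 2196 ± 43.9 with DMSO, and PCNA, the sliding clamp, had 1882 ± 122, against 3795 ± 53.6 with DMSO (SD, n = 3). CCNE2 had 102 ± 7.53 with PU, against 347 ± 3.96 with DMSO (-1.75 ± 0.09), and CCNE1 fell by 1.67 (SE 0.14). Of 26 chaperones 19 fell and 3 rose, with NASP, a carrier of H3 and H4, lower by 0.66 (SE 0.05). SLBP and NPAT did not pass the test (0.11 ± 0.05 and -0.17 ± 0.09, limma adjusted p = 0.0683 and 0.0838). Over the same libraries 0 of the 22 histone genes fell. Most of these had levels near 10 to 30 normalized counts, where intervals are wide, as for HIST1H4C (-1.44 to 0.36).

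Histone genes that are used outside S phase have introns or poly(A) tails and were counted separately. Of 10 tested, 4 rose and 2 fell in JEKO1 libraries labelled IB, and 2 rose and 0 fell with IB in MAVER. With KPT 5 rose and 1 fell, and with PU 4 rose and 1 fell, few genes to set beside the shares of all genes given above. H1FX, the linker histone H1X, had 1058 ± 31.6 normalized counts with PU, 1714 ± 98.9 with KPT, 883 ± 42.8 with IB and 634 ± 15.9 with DMSO (SD, n = 3), with log2 fold changes of 0.74, 1.43 and 0.48 against DMSO. It also rose in JEKO1 libraries labelled IB (0.34 ± 0.06). With KPT, H3F3B, an H3.3 gene, rose by 0.29 ± 0.04 and H2AFZ, an H2A.Z gene, by 0.25 ± 0.05. H2AFY, a macroH2A gene, fell with PU to 3744 ± 61.1, against 4809 ± 90.3 with DMSO. Of 20 other RNAs without a poly(A) tail that were tested in MAVER, 4 rose and 0 fell with KPT, a share below the 27.3% of all genes, with RNA45S5 (0.98 ± 0.35, limma adjusted p = 0.016) and SCARNA9, a small Cajal body RNA (0.99 ± 0.20), among them.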

How the data were processed

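Total RNA was made into 18 TruSeq Stranded libraries, sequenced as single-end reads of 50 bases and handled with STAR, Cufflinks and DESeq2, per the labels' protocols. FastQC and the build hg19 are named without versions, per the submitters' processing notes. The read counter, strand setting and annotation used were not given in the sources used here. The authors deposited a signal, normalized counts, made by dividing the reads of a library by 1 factor. They gave whole reads, within 0.01 read, for all values, so reads were recovered for the count tests. Each cell line has its own table, normalized separately.

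Histone genes were tested with limma 3.58.1 (R 4.3.3) on log2(normalized count + 1), over all genes with a mean of at least 10, with Benjamini-Hochberg adjustment over all of them and a threshold of 0.05. The 4 MAVER groups shared 1 fit, JEKO1 had its own, and the difference between lines used the 12 IB and DMSO libraries. The fits were tested on simulated data. Count tests with edgeR 4.0.16 and DESeq2 1.42.0 on recovered reads were alternatives, beside other pseudocounts, filters, scalings, covariates and left-out libraries. The members, the other gene lists and the rule for naming genes were chosen with earlier results of these data known. The rule names the 10 highest members of each table, up to 12 called members per comparison by size of change, the 5 poly(A) histones, RNA45S5, RPPH1 and RMRP, the members next to the filter, those without a read, and, of each other list and comparison, the 4 genes with the smallest p, with SLBP and NPAT. HIST1H1B and HIST1H3B in JEKO1 were named after their values were seen. Replicates of a group differed by a chi-square of 1.39 to 4.92 per degree of freedom, so none was counted as a copy. The labels do not say what separates the replicates, and the p-values thus cover only the spread among these libraries, which may be technical. Genes with near-identical copies have uncertain counts.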

Additional observations from a re-analysis of the deposited data

Results flagged for a closer look

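HIST1H1C responded differently to the IB label in the lines. The IB effect in JEKO1 minus that in MAVER was -0.44 on the log2 scale (limma, 12 libraries), and an exchange of the JEKO1 labels cannot be told apart from this difference.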

How the results depend on the processing

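Of the counts of histone genes called, that of JEKO1 IB against DMSO (6) was 3 without a mean-variance trend and 3 without the RNA45S5-rich library. All genes called there were 3954 and 4587 of 11609. With 1 library left out the count was 3 to 9. For MAVER IB (0) it was 3 over every gene with a read and 0 to 1 with 1 library left out. For KPT against DMSO (15) it was 28 at a mean of at least 1 (chosen after seeing the data) and 8 to 16 with 1 library left out. It was 4 at a mean of at least 50, where few histone genes are tested. With RNA45S5 as a covariate it was 8, and with RPPH1 and RMRP 9, beside 5842 and 6051 called of all 11099 genes. For PU (1) it was 2 over every gene with a read and 1 in each fit with 1 library left out. For KPT against IB (13) it was 20 over every gene with a read, 26 at a mean of at least 1 and 4 at a mean of at least 50. With RNA45S5 as a covariate it was 7, and with RPPH1 and RMRP 6, beside 5706 and 5521 called of all 11099 genes. With 1 library left out it was 7 to 14. For PU against KPT (12) it was 24 over every gene with a read, 25 at a mean of at least 1 and 2 at a mean of at least 50. With 1 library left out it was 9 to 14. For the difference between lines (1) it was 3 over every gene with a read, 3 at a mean of at least 1 and 1 to 4. Without the rich libraries 5 values called in either fit turned sign: KPT against DMSO of HIST1H3B (-0.11), HIST1H2BJ (-1.71) and HIST1H1B (-0.41), and HIST1H1B for KPT against IB (-0.29) and PU against KPT (0.23). Another 16 values called in neither fit also turned, among them HIST3H2A for KPT against DMSO (-0.12). Beyond the number of genes or libraries a setting leaves, the cause was not tested. Same-letter correlations of deviations were -0.04 to 0.12 in JEKO1 and -0.09 to 0.10 in MAVER. Between different letters they were -0.13 to 0.12 and -0.10 to 0.14. Of 18 libraries 10 were closest to their own letter, which 1 in 3 of the possible partners carries. Whether the letters pair the libraries was not tested further, and the main fits left them out. With the letters as a replicate block the counts in the same order were 9, 0, 14, 1, 14, 12 and 1. Depth limits the low genes: most histone genes in MAVER had under 30 normalized counts.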
